A study of Mus musculus with 2 samples.

Results

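The cytosolic ribosome is built from ribosomal RNA and a fixed set of ribosomal proteins, and the genes for these proteins are described here in nuclei of the mouse medial prefrontal cortex. Members were the rows whose symbol starts with Rpl or Rps followed by a number (with the endings a, x, y or l, and a further number, allowed), together with Rplp0, Rplp1, Rplp2 and Rpsa. Pseudogene rows ending in -ps and the Rps6k kinases were left out. Of 31053 rows in the table, 83 matched by symbol and 81 of these held signal in at least 1 genotype average. The members comprised 32 genes of the small (40S) subunit and 49 of the large (60S) subunit. Rpl10l and Rpl39l were listed at 0 in both libraries, and the table had no row for Rps4l.

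The study compared male mice lacking NPAS2, a circadian transcription factor, with wild-type littermates in a study of sleep and napping. The groups were the Npas2 knockout, with 4 mice pooled into 1 library, and the wild-type, with 4 mice pooled into 1 library. Both were sampled at zeitgeber time 20, in the dark phase of a cycle with 12 h of light. The sources used here do not give the age of the mice, the Npas2 allele or its deleted part. With 1 pooled library per genotype no difference below has a replicate check and no test was possible. The ranges in parentheses after levels, sums and ratios are 95% counting intervals that cover counting error only, not differences between mice.

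Each ribosome carries 1 copy of nearly every one of these proteins, and cells keep their production balanced. Most of their messenger RNAs begin with a C followed by a run of pyrimidines, the 5′ terminal oligopyrimidine (TOP) motif, through which the growth kinase complex mTORC1 and the protein LARP1 set how much they are translated. The mRNAs are short, stable and spliced from short genes, and most of the mature copies lie in the cytoplasm. Nuclei therefore hold only a part of a cell's ribosomal protein mRNA. NPAS2 pairs with BMAL1 and binds the E-box CACGTG.

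The sequences around the annotated starts of members at the ends of the range are shown here because the TOP motif lies at the start. They are from RefSeq (mouse assembly GRCm38.p6), run 5′ to 3′ on the gene's strand from 60 bases before the start to 20 bases after its first position, and carry in capitals each run of a C followed by 6 or more C or T bases. Rps21, Rpl7a and Rps6 had the 3 lowest ratios between the libraries.

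Rps21: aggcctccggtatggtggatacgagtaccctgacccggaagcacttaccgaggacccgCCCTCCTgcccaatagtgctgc

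Rpl7a: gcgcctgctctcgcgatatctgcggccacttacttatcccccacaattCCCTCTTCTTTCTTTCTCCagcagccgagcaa

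Rps6: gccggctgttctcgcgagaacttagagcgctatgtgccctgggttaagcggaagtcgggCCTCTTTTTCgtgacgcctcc

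Rps27, Rpl6 and Rps12 had the 3 highest ratios among members above the floor on low levels given with the values.

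Rps27: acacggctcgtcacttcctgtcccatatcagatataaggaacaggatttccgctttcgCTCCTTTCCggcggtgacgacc

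Rpl6: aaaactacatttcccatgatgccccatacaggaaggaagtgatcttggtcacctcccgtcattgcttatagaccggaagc

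Rps12: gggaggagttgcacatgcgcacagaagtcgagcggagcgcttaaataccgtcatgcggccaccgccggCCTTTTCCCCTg

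Rpl22 and its paralog Rpl22l1, whose products replace each other on the large subunit, and Rps27l, the paralog of Rps27, complete the set.

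Rpl22: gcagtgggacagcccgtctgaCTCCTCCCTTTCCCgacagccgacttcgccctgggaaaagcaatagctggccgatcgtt

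Rpl22l1: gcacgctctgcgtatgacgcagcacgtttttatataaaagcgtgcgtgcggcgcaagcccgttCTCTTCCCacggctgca

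Rps27l: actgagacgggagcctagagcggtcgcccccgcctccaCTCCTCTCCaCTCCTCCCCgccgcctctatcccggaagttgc

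The stretches lie at chr2:180257319-180257398 (plus strand) for Rps21, chr2:26910747-26910826 (plus) for Rpl7a and chr4:86857348-86857427 (minus) for Rps6. They lie at chr3:90213629-90213708 (minus) for Rps27, chr5:121204441-121204520 (plus) for Rpl6 and chr10:23787190-23787269 (minus) for Rps12. Those of the paralogs lie at chr4:152325666-152325745 (plus) for Rpl22, chr3:28805448-28805527 (plus) for Rpl22l1 and chr9:66946026-66946105 (plus) for Rps27l. In Rps21, Rps6 and Rps27 the run began within 2 bases of the annotated start, and in Rpl7a 12 bases before it. Rpl6 had no such run in its stretch, and the run of Rpl22 began 39 bases before the annotated start. Both ends of the range thus held genes with a run at the start.

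Of the 81 members, 61 were matched in the RefSeq promoter table. A pyrimidine run between 30 bases before and 20 bases after the start, on the gene's strand, was present in 35 of these 61 members (57.4%), against 26.3% of the 27025 genes in the table. The letters CCGGAAG, part of an ETS factor motif, were found on either strand in 41.0% of the members and in 9.93% of all genes, over 250 bases before to 50 bases after the start. The same window held AAGATGG, part of a YY1 motif, in 16.4% of the members and 7.28% of all genes, and TATAAA in 11.5% and 15.7%. CACGTG, the E-box that NPAS2 binds, was present in 6 of the 61 members (9.84%), against 8.09% of all genes. The 6 were Rpl13a, Rpl14, Rpl19, Rpl23, Rpl34 and Rps19. Their stretches of 40 bases follow on the gene's strand, with the E-box in capitals, since this is the sequence in these promoters that the deleted factor is known to bind.

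Rpl23: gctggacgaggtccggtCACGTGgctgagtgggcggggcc

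Rpl19: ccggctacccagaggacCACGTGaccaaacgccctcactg

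Rps19: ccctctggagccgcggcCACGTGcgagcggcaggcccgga

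Rpl34: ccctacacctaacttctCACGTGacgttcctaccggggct

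Rpl14: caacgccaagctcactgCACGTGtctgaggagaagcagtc

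Rpl13a: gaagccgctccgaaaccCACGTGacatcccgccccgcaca

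These lie at chr11:97782420-97782459 (minus) for Rpl23, chr11:98026674-98026713 (plus) for Rpl19 and chr7:24884776-24884815 (plus) for Rps19. They lie at chr3:130730531-130730570 (minus) for Rpl34, chr9:120571332-120571371 (plus) for Rpl14 and chr7:45128923-45128962 (minus) for Rpl13a. The E-box began 3 bases before an annotated start in Rpl23 and 19 bases before it in Rpl19. In the other 4 genes it began 120 to 200 bases before an annotated start. A match is a description of the letters in the window and not a binding site.

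The KO-labelled library held 7161 nuclei and the WT-labelled library 5578, with estimated mean depths of 3274 UMIs (molecules counted by unique identifiers) per nucleus in the KO-labelled library and 4034 in the WT-labelled library. Values below are the deposited averages, the mean over nuclei of counts per 10000 counts of a nucleus. Npas2, the targeted gene, was at 1.39 in the KO-labelled library and 1.29 in the WT-labelled library. Its level therefore does not check the labels, and 3′ reads that fall outside a deletion could not do so. The libraries are therefore called KO-labelled and WT-labelled throughout, and every direction rests on those labels. Markers of several cell types moved with the libraries. The summed signal of 8 oligodendrocyte markers was 2.55 in the KO-labelled library and 7.93 in the WT-labelled library, and that of 8 astrocyte markers was 2.36 in the KO-labelled library and 4.60 in the WT-labelled library. Summed over 8 microglia markers it was 2.16 in the KO-labelled library and 3.53 in the WT-labelled library. All 8 were lower in the KO-labelled library on each of these 3 lists. Of 10 markers of striatal spiny projection neurons 9 were lower, with a sum of 9.79 in the KO-labelled library and 12.9 in the WT-labelled library. Their log2 ratios had a median of -1.74 (9 genes, 1 of low level left out). Summed markers of excitatory and inhibitory neurons were higher in the KO-labelled library, by ratios of 1.14 and 1.27. These 2 lists were mixed, with 3 of 8 markers lower in the KO-labelled library on each. No marker was at 0 in either library. Mitochondrially encoded mRNAs summed to 14.2 in the KO-labelled library and 62.5 in the WT-labelled library. Excitatory neuron-like clusters, which match the tissue label, held 6537 of the nuclei, and cluster 6, with 683 nuclei, raised 10 of 10 markers of striatal spiny projection neurons.

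Nearly all ribosomal protein genes were lower in the KO-labelled library. Their summed signal was 33.2 (32.9 to 33.4) counts per 10000 there and 46.0 (45.7 to 46.3) in the WT-labelled library, a ratio of 0.721 (0.713 to 0.729). Of the 81 members, 79 passed the floor of 0.0461, the median level of all genes with signal, which 12003 genes passed. Among these 79, 77 were lower in the KO-labelled library, where 59.2% of all genes above the floor were lower. At 80% or less of their WT-labelled level (with 0.01 added to both levels) were 65 members (82.3%), against 19.3% of all genes, and no member differed by this factor in the other direction, against 9.46% of all genes. At least 1.5-fold lower were 19 members, against 6.91% of all genes, and none was at least 2-fold lower, as 2.37% of all genes were. The members' median log2 ratio, knockout over wild-type, was -0.52, with the middle 50% between -0.58 and -0.37, where all genes above the floor had a median of -0.06. From the averages of the libraries alone, fewer nuclei of a type and less RNA per nucleus cannot be told apart. Estimated nuclei per cluster are given with the clusters, but the cluster averages pool both libraries and so do not separate them cleanly.

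**Figure D1:**
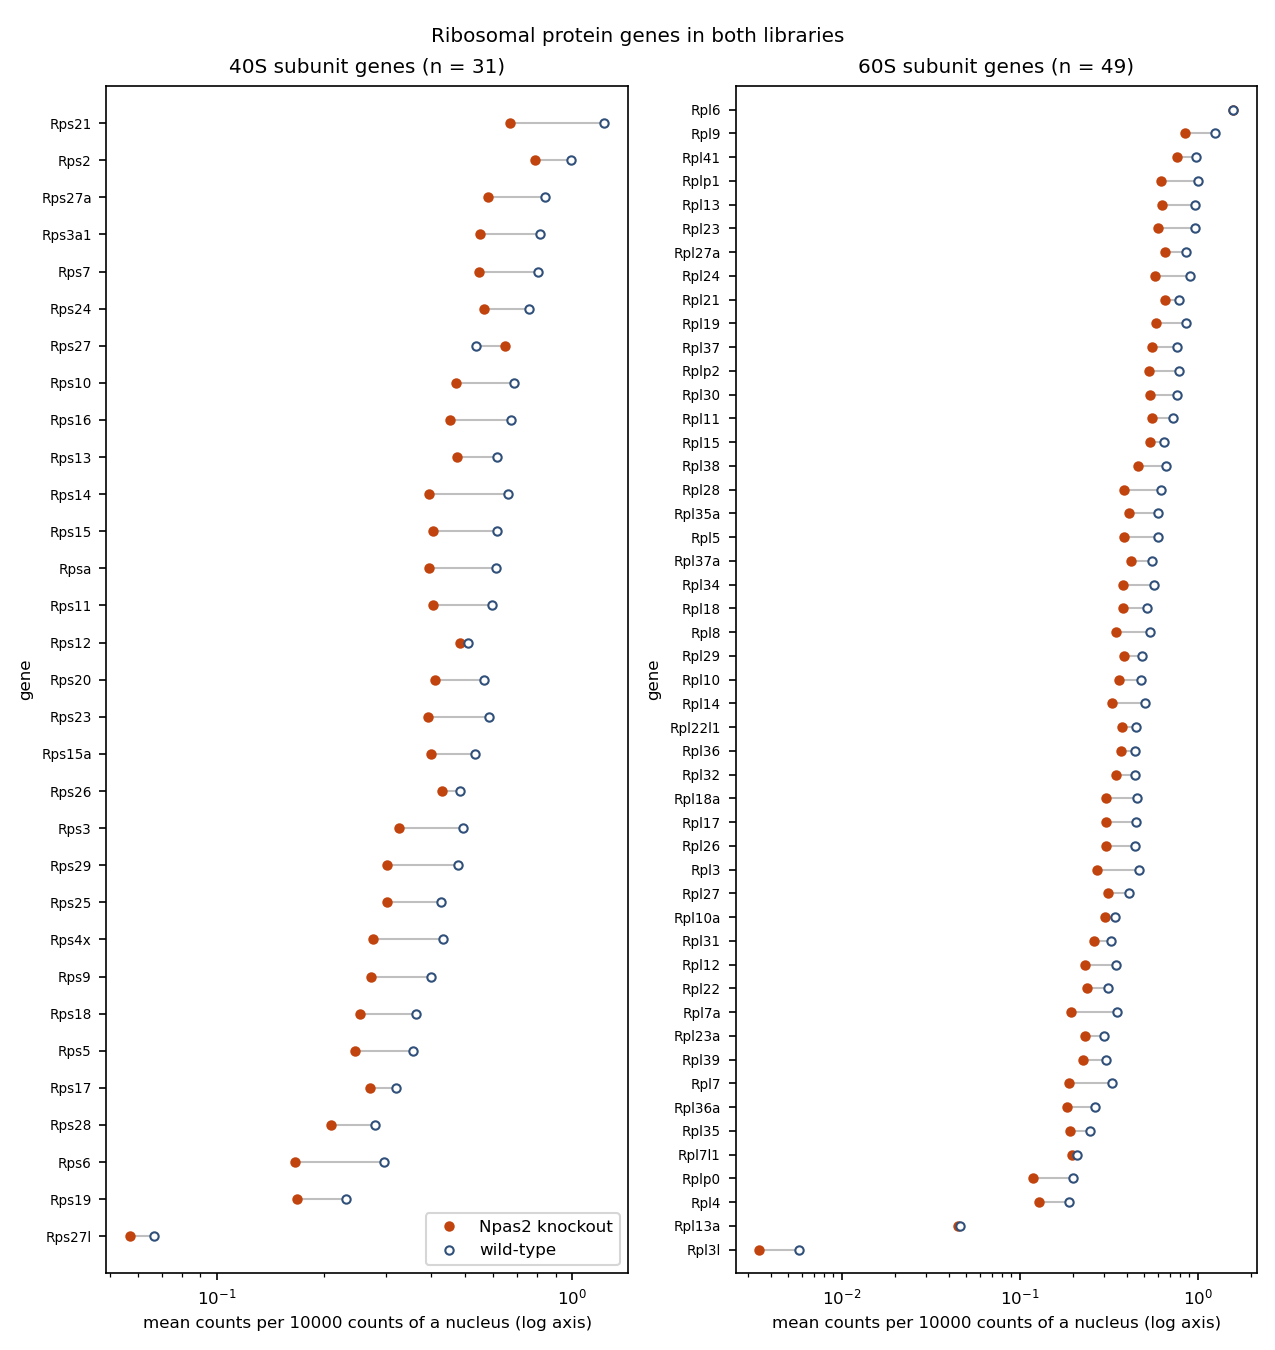
Levels of 80 of the 81 ribosomal protein genes with signal, as mean counts per 10000 counts of a nucleus on a log axis. Filled points are the Npas2 knockout library and open points the wild-type library, 1 pooled library each. The filled point lies left of the open one for 78 of these 80 genes, coincides with it for Rpl6 and lies right of it for Rps27.

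The small and the large subunit differed between the libraries by about as much. The 32 genes of the 40S subunit summed to 13.3 counts per 10000 in the KO-labelled library and 18.6 in the WT-labelled library, with 31 of 32 lower and a median log2 ratio of -0.53. The largest difference of all members was in Rps21 (chr2:180257377-180258445), a small protein of the 40S subunit, at 0.672 in the KO-labelled library against 1.23 in the WT-labelled library. Its ratio was 0.545 (0.506 to 0.586), or -0.87 on the log2 scale. Rps6, the 40S protein phosphorylated by S6 kinases downstream of mTORC1 (chr4:86854660-86857412), was at 0.166 in the KO-labelled library and 0.295 in the WT-labelled library, a ratio of 0.562 (0.484 to 0.652).

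Rps21 was also among the 40S members of high level, as counts of 3′ tags not divided by length, and so was Rps2. Rps2, a protein near the mRNA entry channel, was at 0.790 in the KO-labelled library against 0.992 in the WT-labelled library, with a ratio of 0.796 (0.740 to 0.856). Rpsa, which is also known as the laminin receptor precursor, was at 0.397 in the KO-labelled library and 0.613 in the WT-labelled library, with a ratio of 0.648 (0.587 to 0.715). Both of these counting intervals lay below 1.

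Rps27, a zinc-finger protein of the 40S subunit, was the 1 member above the floor whose counting interval lay above 1. It was at 0.650 in the KO-labelled library and 0.536 in the WT-labelled library, a ratio of 1.21 (1.11 to 1.33), or 0.27 on the log2 scale. Its gene (chr3:90212522-90213651, minus strand) overlaps no other annotated gene, and the related row Rps27rt was at 0.00539 in the KO-labelled library and 0.0107 in the WT-labelled library. Rps12, at 0.485 in the KO-labelled library against 0.510 in the WT-labelled library, had a ratio of 0.951 (0.862 to 1.05). Rps26, a protein at the mRNA exit channel, was at 0.432 in the KO-labelled library and 0.483 in the WT-labelled library, with a ratio of 0.895 (0.808 to 0.991). The counting interval of Rps12 included 1, and that of Rps26 ended just below it.

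The 49 genes of the 60S subunit summed to 19.9 counts per 10000 in the KO-labelled library and 27.4 in the WT-labelled library. Lower in the KO-labelled library were 46 of the 47 above the floor, with a median log2 ratio of -0.50. Rpl7a (chr2:26910764-26913318) was at 0.195 in the KO-labelled library and 0.355 in the WT-labelled library, a ratio of 0.548 (0.478 to 0.628). Rpl7 had a ratio of 0.576 (0.50 to 0.662), from 0.190 in the KO-labelled library and 0.330 in the WT-labelled library. Rpl3, which lies close to the peptidyl transferase centre, was at 0.273 in the KO-labelled library against 0.471 in the WT-labelled library, a ratio of 0.580 (0.516 to 0.652). These 3 genes had the largest differences of the 60S subunit.

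Rpl6 (chr5:121204481-121209241), the member with the highest level of all, did not share in the difference. It was at 1.588 in the KO-labelled library and 1.587 in the WT-labelled library, with a ratio of 1.0 (0.948 to 1.06). Other 60S members of high level were Rpl9, at 0.855 in the KO-labelled library and 1.253 in the WT-labelled library, and Rpl41, a peptide and the smallest ribosomal protein, at 0.771 in the KO-labelled library and 0.983 in the WT-labelled library. Rpl13 and Rpl23 had 0.630 and 0.601 counts per 10000 in the KO-labelled library, against 0.971 and 0.969 in the WT-labelled library. Rpl27a was at 0.658 in the KO-labelled library and 0.859 in the WT-labelled library. Their ratios were 0.682 (0.637 to 0.730) for Rpl9, 0.784 (0.729 to 0.844) for Rpl41, 0.649 (0.600 to 0.701) for Rpl13, 0.620 (0.573 to 0.671) for Rpl23 and 0.766 (0.708 to 0.829) for Rpl27a. Without Rpl6 the summed ratio of the members was 0.711.

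The P stalk, the flexible arm of the 60S subunit that recruits elongation factors, is made of Rplp0, Rplp1 and Rplp2. Rplp0 was at 0.120 in the KO-labelled library and 0.201 in the WT-labelled library, a ratio of 0.596 (0.498 to 0.711). Rplp1 was at 0.623 in the KO-labelled library and 0.9996 in the WT-labelled library, a ratio of 0.623 (0.576 to 0.673). Rplp2 was at 0.531 in the KO-labelled library and 0.787 in the WT-labelled library, a ratio of 0.675 (0.619 to 0.735). All 3 were lower in the KO-labelled library, with a median log2 ratio of -0.67, and each lay below 80% of its WT-labelled level.

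The paralogs whose names carry an l stood closer to equality than their partners. Rpl22l1 was at 0.378 in the KO-labelled library and 0.453 in the WT-labelled library, a log2 ratio of -0.25, while Rpl22 was at 0.240 in the KO-labelled library and 0.315 in the WT-labelled library, a log2 ratio of -0.38. Rpl7l1, at 0.198 in the KO-labelled library and 0.212 in the WT-labelled library, had a ratio of 0.936 (0.803 to 1.09), or -0.09 on the log2 scale, where its partner Rpl7 had -0.77. Rps27l was at 0.0570 in the KO-labelled library and 0.0667 in the WT-labelled library, a ratio of 0.855 (0.644 to 1.14), against the 1.21 of Rps27. None of the 3 paralogs above the floor was at or under 80% of its WT-labelled level. The intervals of Rpl7l1 and Rps27l included 1, and whether each paralog differed from its partner was not tested.

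The other partners were lower, with log2 ratios of -0.41 for Rpl10, -0.40 for Rpl39 and -0.64 for Rps4x. Rpl3l, the paralog of striated muscle, was at 0.00345 in the KO-labelled library and 0.00575 in the WT-labelled library, far under the floor. Rps27l was the member just above the floor, with a mean of 0.0618, and Rpl13a, with a mean of 0.0454, the one just below it. Rpl13a had 0.0448 counts per 10000 in the KO-labelled library and 0.0461 in the WT-labelled library, and it overlaps an annotated gene, Gm45713, on the same strand. Some other members also overlap an annotated gene on their strand, among them Rpl13 (Gm20388), Rpl19 (Gm11629) and Rps10 (RPS10-NUDT3). Reads of members that share sequence with pseudogenes cannot be placed with certainty. The 9 pseudogene rows ending in -ps summed to 0.0284 in the KO-labelled library and 0.0364 in the WT-labelled library. Pseudogenes under other symbols were not counted, and these sums do not show how many reads were shared.

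Abundance, gene length and genomic context did not separate the members that differed more from those that differed less. Across the 79 members the log2 ratio had a Spearman rho of -0.08 with the mean level and of -0.08 with the length of the gene. The points share both libraries, and members are not independent of each other. The 29 members above the floor with small nucleolar RNAs inside their introns had a median log2 ratio of -0.52, and the other 50 had -0.51. The 4 X-linked members, Rpl10, Rpl36a, Rpl39 and Rps4x, had a median of -0.45 and the autosomal members -0.52. Members with a pyrimidine run at the start had a median of -0.51 (n = 34) and matched members without one -0.50 (n = 25). Members with CACGTG had a median of -0.57, from -0.68 to -0.43 (n = 5 above the floor), within the range of -0.87 to 0.27 of the 54 members without it. Rpl31 (chr1:39367842-39371911), which neighbours Npas2 and was named for its position, was at 0.263 in the KO-labelled library and 0.326 in the WT-labelled library, a log2 ratio of -0.30.

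Other lists of the translation machinery were lower by less or had medians near that of all genes. For comparison with the lists that follow, 59.2% of all genes above the floor were lower, with a median log2 ratio of -0.06. Of 25 other mRNAs known for a TOP motif, 24 were lower in the KO-labelled library, with a median log2 ratio of -0.38, and 20 genes of that list also stand on another list. The elongation factor gene Eef1a1 was at 0.714 in the KO-labelled library and 1.11 in the WT-labelled library, a ratio of 0.641 (0.596 to 0.690). Tpt1, a growth-related TOP mRNA, was at 0.699 in the KO-labelled library and 1.09 in the WT-labelled library, a ratio of 0.640 (0.594 to 0.689). Rack1, a scaffold protein on the 40S subunit, had a ratio of 0.712 (0.615 to 0.824). Fau and Rpl36al encode ribosomal proteins under symbols outside the rule. Fau was at 0.784 in the KO-labelled library and 1.10 in the WT-labelled library, a ratio of 0.710 (0.661 to 0.762), and Rpl36al had a ratio of 0.908 (0.784 to 1.05), an interval that included 1.

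Initiation factors had a median log2 ratio of -0.24, with 31 of 39 genes lower. All 13 genes of eIF3, the complex that joins the 40S subunit to mRNA, were lower, with a median of -0.38. Elongation and release factors had a median of -0.22, with 10 of 12 lower. Ribosome-associated factors had a median of -0.08, close to that of all genes, with 9 of 10 lower. Among the 43 genes of ribosome assembly 32 were lower, with a median of -0.07, close to that of all genes. Nhp2 and Ncl, of the small nucleolar particles and the nucleolus, had the lowest values of this list, with log2 ratios of -0.70 and -0.60. The list of mTORC1 and its RNA-binding effectors had 13 of 17 genes lower and a median of -0.07, also close to that of all genes. In it Deptor, an inhibitor of mTOR, was higher, at 0.393 in the KO-labelled library against 0.220 in the WT-labelled library, a ratio of 1.78 (1.56 to 2.04).

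The difference was not confined to genes of the cytosolic ribosome. Abundant short mRNAs of other functions had a median log2 ratio of -0.47, with 24 of 25 lower. Their lowest member, the ferritin gene Fth1, was at 1.80 in the KO-labelled library and 4.07 in the WT-labelled library. Nuclear genes of the respiratory chain had a median of -0.33, with 74 of 78 lower, and mitochondrial ribosomal proteins one of -0.21, with 63 of 75 lower. Mitochondrially encoded mRNAs had a median of -2.15, with 12 of 12 lower. RNAs that stay in the nucleus had a median of 0.08, with 3 of 8 lower and log2 ratios from -1.84 to 0.36. The 3 lower ones were Neat1, Pantr1 and Malat1. Neat1 was at 0.183 in the KO-labelled library and 0.681 in the WT-labelled library, and Pantr1 at 0.482 and 0.611. Malat1 was at 994 in the KO-labelled library and 1220 in the WT-labelled library. The part of cytoplasmic RNA carried over with nuclei in the ribosomal protein difference was not tested.

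**Figure D2:**
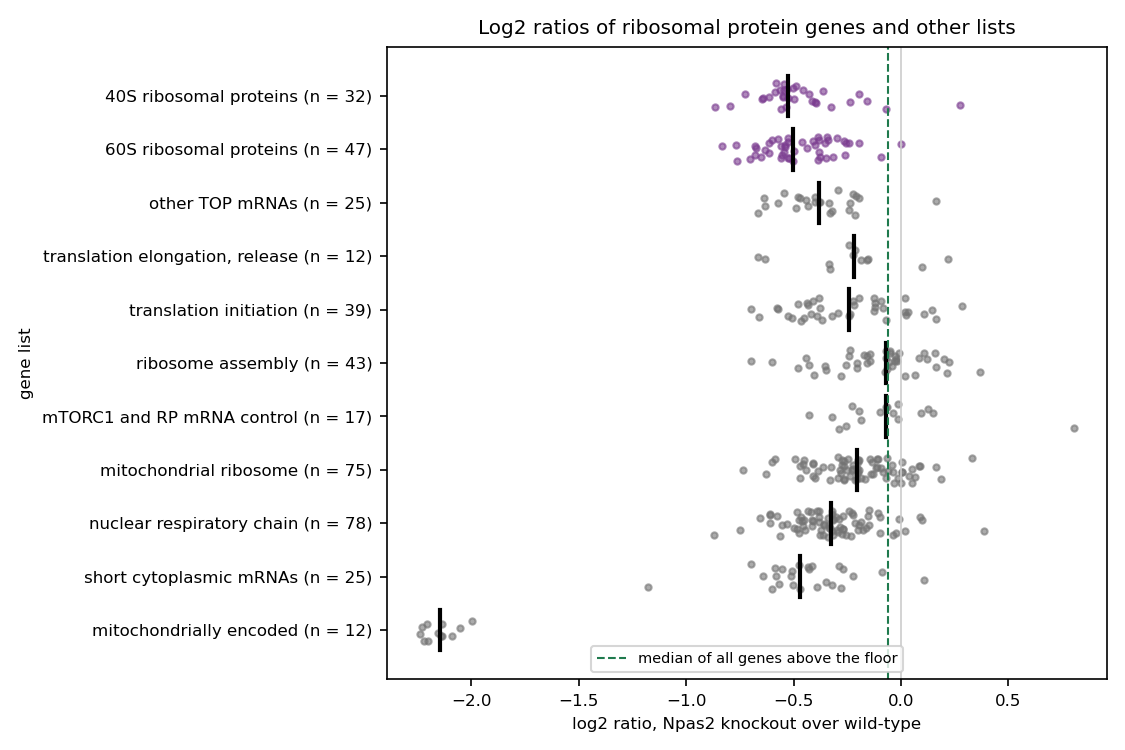
Log2 ratio of the Npas2 knockout library over the wild-type library for each gene above the floor, by gene list, with black bars at list medians and a dashed line at the median of all genes, -0.06. Vertical position within a list is random. Ribosomal protein genes centre near -0.52, close to short cytoplasmic mRNAs at -0.47, while ribosome assembly genes centre near the median of all genes and mitochondrially encoded mRNAs near -2.15.

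Ribosomal protein signal also differed between the 23 deposited clusters, each of which pools nuclei of both libraries. It was highest in cluster 8, oligodendrocyte-like with 8 of 8 markers raised, at 79.5 (77.3 to 81.8) counts per 10000. Cluster 14, left unnamed because it raised 8 of 8 astrocyte and 8 of 8 endothelial markers, was at 78.0 (75.1 to 81.0), and cluster 18, microglia-like with 8 of 8 markers raised, at 75.3 (71.8 to 78.9). The intervals of these 3 clusters overlapped. The 8 excitatory neuron-like clusters lay between 26.2 (24.0 to 28.5) in cluster 20 and 43.9 (42.1 to 45.7) in cluster 15. The 5 inhibitory neuron-like clusters lay between 36.2 (35.1 to 37.4) in cluster 11 and 52.2 (51.2 to 53.3) in cluster 4. The striatal neuron-like cluster 6 was at 41.9 (41.1 to 42.8). Cluster 8 was thus 3.04-fold (2.78 to 3.33) above cluster 20, the lowest of the named clusters.

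The 7 unnamed clusters lay between 29.2 in cluster 3 and 78.0 in cluster 14. Cluster 3 was at 29.2 (28.6 to 29.7) and cluster 17 had an interval of 36.2 to 39.9. Cluster 10, which raised all 8 inhibitory and all 6 proliferation markers, was at 59.6 (57.8 to 61.6), and cluster 19, which raised 8 of 8 oligodendrocyte and 8 of 8 precursor markers, at 54.4 (51.9 to 56.9). Cluster 22, with 20 nuclei, was at 73.5 (64.5 to 83.3). Among the clusters of at least 100 nuclei, clusters 10, 19 and 4 came next after clusters 8, 14 and 18. The other inhibitory neuron-like clusters, the striatal neuron-like cluster 6, cluster 17 and the excitatory neuron-like cluster 15 were mixed in order between 36.2 and 45.6, and the other excitatory neuron-like clusters lay lower, at 33.9 or less. Clusters 0, 1 and 5 followed closely on each other at the low end, at 28.0 (27.6 to 28.4), 28.1 (27.7 to 28.5) and 26.9 (26.3 to 27.5). Those of clusters 0 and 1 did not differ beyond counting error.

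Nearly every member was high in the same 3 clusters. These have the highest sums of all clusters and were chosen with the sums known, so the counts that follow describe them. Of the 79 members above the floor, 76 (96.2%) had their highest value among the 20 clusters of at least 100 nuclei in cluster 8, 14 or 18, against 43.6% of all genes. The mean over clusters 8, 14 and 18 stood over that of the large excitatory neuron-like clusters 0, 1, 2 and 5 by a median factor of 2.82 (range 1.38 to 4.31), where all genes had a median of 1.252. Cluster 19, led by the precursor genes Pdgfra, Neu4 and Sox10, also carries non-neuronal markers, and with it added to the 3 clusters the median factor was 2.67. Rps6 had the highest factor, 4.31, with 0.718 (0.524 to 0.960) in cluster 8 against 0.120 (0.0947 to 0.149) in cluster 0. Rpl6 had the lowest, 1.38, with 1.76 (1.45 to 2.12) in cluster 8 and 1.37 (1.28 to 1.46) in cluster 0. Rps27 came next with 1.40. The ratio of 40S to 60S signal was 0.669 in the KO-labelled library and 0.680 in the WT-labelled library, and in the 20 clusters it lay between 0.640 in cluster 19 and 0.723 in cluster 8.

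The order of the clusters was the reverse of their depth. Across the 20 clusters, summed ribosomal protein signal per 10000 counts had a Spearman rho of -0.96 with the mean UMIs per nucleus, which were between 1502 in cluster 14 and 5240 in cluster 5. The clusters share both libraries, and depth is the denominator of the signal. Per nucleus, the members were nearly level. Multiplied by the harmonic mean depth of each cluster, the summed signal corresponded to 8.23 UMIs per nucleus in cluster 17 as the lowest, a median of 10.0 and 13.1 in cluster 13 as the highest. That was a range of 1.59-fold, against 2.96-fold per 10000 counts over the same 20 clusters. By the same conversion all other genes together ranged 3.29-fold, between 1213 and 3987. They make up nearly all counts, so their range is that of the depth itself. The oligodendrocyte-like cluster 8 was at 10.6 ribosomal protein UMIs per nucleus and the excitatory neuron-like clusters 0 and 5 at 10.1 and 10.7. With the arithmetic mean depth in place of the harmonic one, the members ranged from 10.7 to 15.1, or 1.41-fold, over the clusters. All other genes together then ranged from 1490 to 5226, or 3.51-fold.

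**Figure D3:**
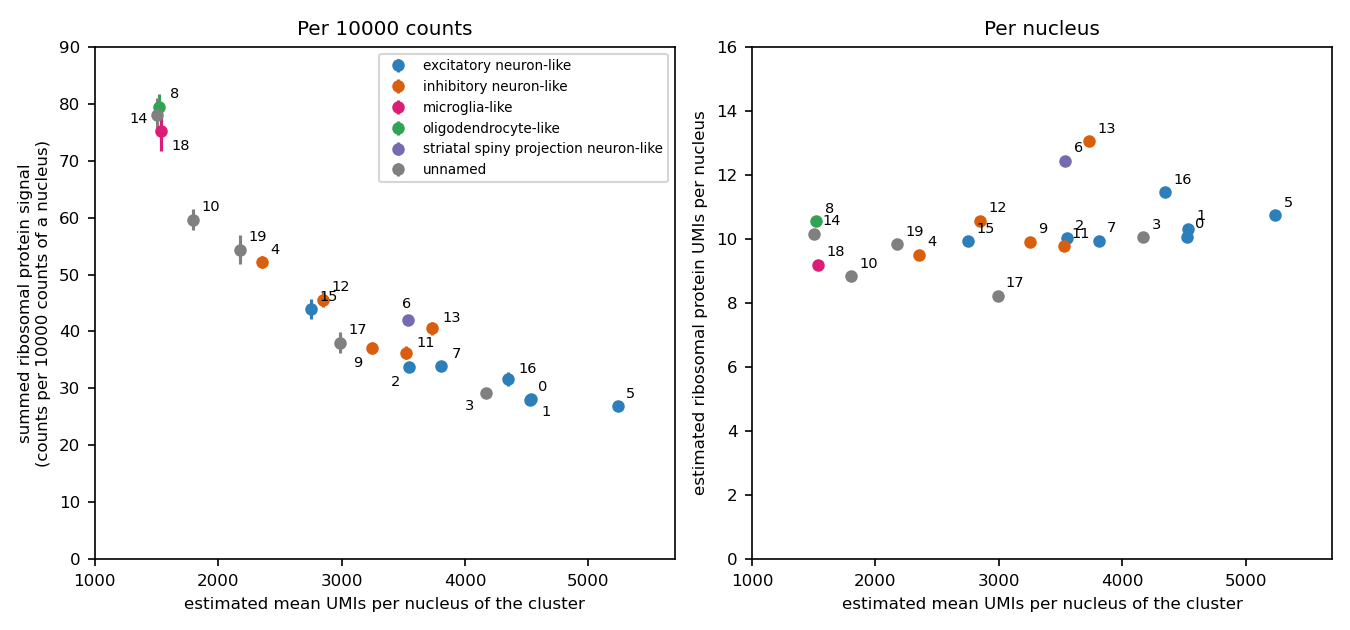
Summed ribosomal protein signal of the 20 clusters of at least 100 nuclei against the estimated mean UMIs per nucleus, per 10000 counts (left, bars are 95% counting intervals) and as estimated UMIs per nucleus (right, from the harmonic mean depth). Numbers are cluster numbers and colours the names given from markers. The left panel falls with depth, with clusters 8, 14 and 18 above 75, and the right panel stays between 8.23 and 13.1.

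The same held for single members. The coefficient of variation over the 20 clusters had a median of 0.433 per 10000 counts and 0.189 per nucleus, and it was lower per nucleus for 77 of the 79 members, against 39.2% of the 10240 genes with means in the members' range. Per nucleus, clusters 8, 14 and 18 stood at a median of 1.05 times clusters 0, 1, 2 and 5 over the members (range 0.507 to 1.61), where all genes above the floor stood at 0.459. Of the 79 members, 56 (70.9%) lay between 0.8 and its reciprocal, against 11.5% of all genes. Rpl6 and Rps27 were the lowest, at 0.507 and 0.517, and were thus near the value of all genes. Abundant short mRNAs of other functions ranged 3.56-fold over the clusters per 10000 counts and 1.61-fold per nucleus, much as the ribosomal protein genes did, and had a Spearman rho of 0.99 with them (n = 20 clusters). Malat1 ranged 2.67-fold per 10000 counts and 3.52-fold per nucleus.

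A member's level followed the sum of the other members across the 20 clusters with a median Pearson r of 0.92 over the 79 members. The same value for all genes was not computed. Sums of the other lists compared also followed the members' sum. Their Pearson r was between 0.61 for mitochondrially encoded mRNAs and 0.97 for nuclear genes of the respiratory chain. The points share depth and both libraries. Rps10, at 0.98, was the member most like the rest, and Rps7 and Rps29 came next. The least alike were Rps27 at 0.41, Rps27l at 0.66 and Rps12 at 0.68. The members whose share of the summed signal varied most between clusters were Rps27l, Rps27, Rpl7l1, Rplp0 and Rpl23a, with highest over lowest shares of 9.12, 3.71, 3.39, 3.01 and 2.87.

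Rps27 made up 2.19% of the summed signal in cluster 4 and 0.592% in cluster 14. Its level was 1.15 (0.995 to 1.31) in cluster 4, the highest of the 20 clusters, and 0.462 (0.265 to 0.748) in cluster 14. Cluster 4 held 81.3% of its nuclei in the KO-labelled library by the estimate used, and took 11.3% of that library's nuclei against 3.33% of the WT-labelled library. Rplp0 made up 0.736% in cluster 19 and 0.245% in cluster 15, which rested on about 13.5 and 5.91 UMIs. Rpl7l1 made up 0.843% in cluster 10 and 0.249% in cluster 8, on about 32.5 and 12.5 UMIs. Rpl23a made up 0.977% in cluster 15 and 0.340% in cluster 16, where it rested on about 9.40 UMIs. The lowest share of Rps27l, 0.0277% in cluster 18, rested on under 1 UMI and is at the limit of the depth. Rpl6 made up 5.14% in cluster 3 and 2.22% in cluster 8.

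**Figure D4:**
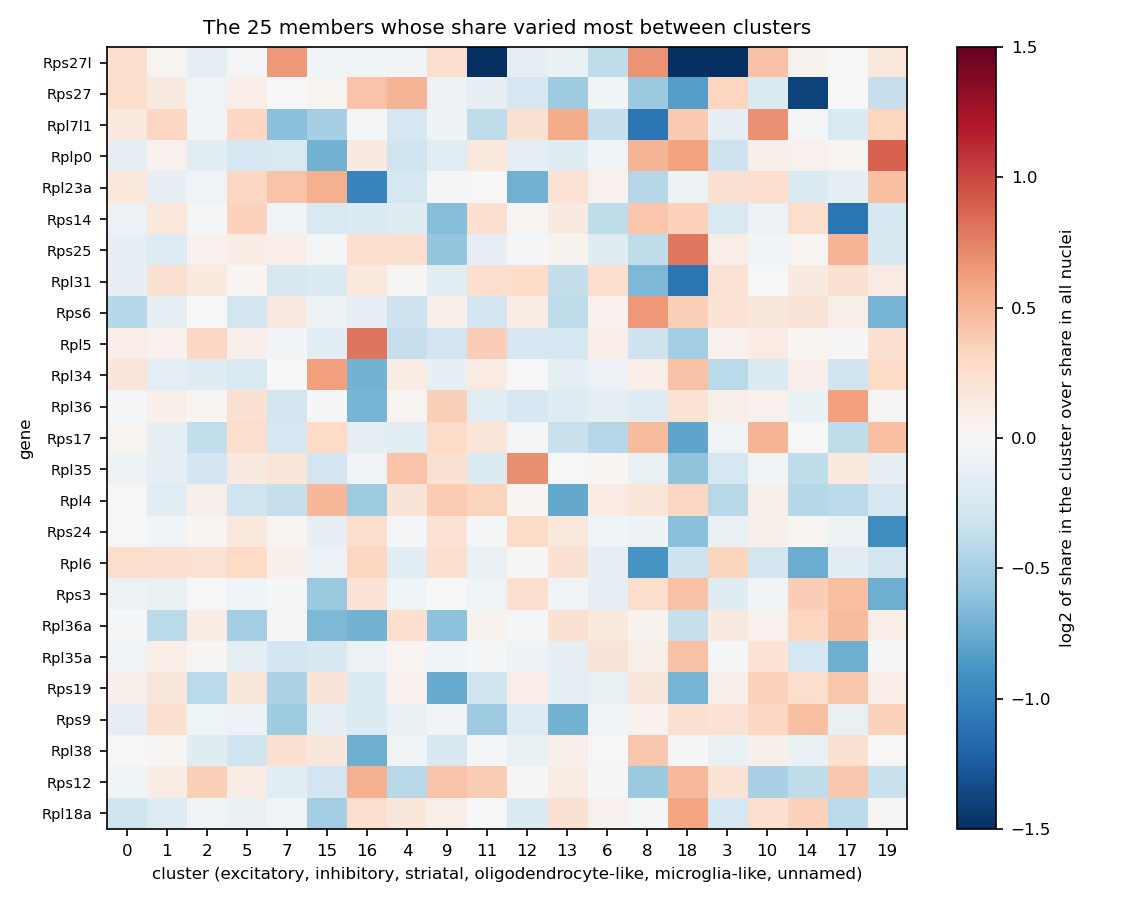
Log2 of each gene's share of the summed ribosomal protein signal in a cluster over its share in all nuclei, for the 25 members whose share varied most between the 20 clusters of at least 100 nuclei. Colours stop at 1.5 in either direction. Rps27 is high in cluster 4 and low in cluster 14, Rpl6 is low in clusters 8 and 14, and the dark cells of Rps27l in clusters 3, 11 and 18 rest on few UMIs.

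The number of nuclei per cluster differed between the libraries. Clusters 8, 14 and 18 took 3.85% of the nuclei in the KO-labelled library and 11.8% in the WT-labelled library. Cluster 19 took 0.821% in the KO-labelled library and 2.30% in the WT-labelled library. The striatal neuron-like cluster 6, with a ribosomal protein sum of 41.9, differed by more, at 1.41% in the KO-labelled library and 10.4% in the WT-labelled library. Clusters 4 and 10, also high in ribosomal protein signal, took 15.2% in the KO-labelled library and 6.15% in the WT-labelled library. From the pooled cluster averages and these numbers of nuclei, sums of 37.4 and 40.5 counts per 10000 were expected for the KO-labelled library and the WT-labelled library, a ratio of 0.924, against the observed 0.721. The observed ratio over the expected one was 0.781. Because each cluster average pools both libraries, it already holds any difference between them. The expected values therefore do not cleanly separate fewer nuclei of a type from less RNA per nucleus. After subtraction of each gene's expected log2 ratio, the members' median was -0.38 and that of all genes -0.03, and 76 of the 79 members were below 0, against 56% of all genes. A ratio of observed over expected of 0.820 was obtained with nuclei per cluster from least squares.

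Members with a larger difference between clusters had a larger difference between libraries. Across the 79 members the log2 ratio between libraries had a Spearman rho of -0.64 and a Pearson r of -0.69 with the ratio of clusters 8, 14 and 18 over clusters 0, 1, 2 and 5. With cluster 19 added to clusters 8, 14 and 18 they were -0.67 and -0.70. Both measures share the libraries, since each cluster average pools them. Rps27 and Rpl6 were at one end of both measures, and Rps6, Rpl7 and Rplp0 near the other. Rps21 and Rpl7a, which had the lowest ratios between the libraries, had middling cluster ratios of 2.91 and 2.89. Subtraction of the expected value left them at -0.66 and -0.71, Rps27 at 0.21, Rpl6 at 0.00 and Rps12 at 0.02.

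**Figure D5:**
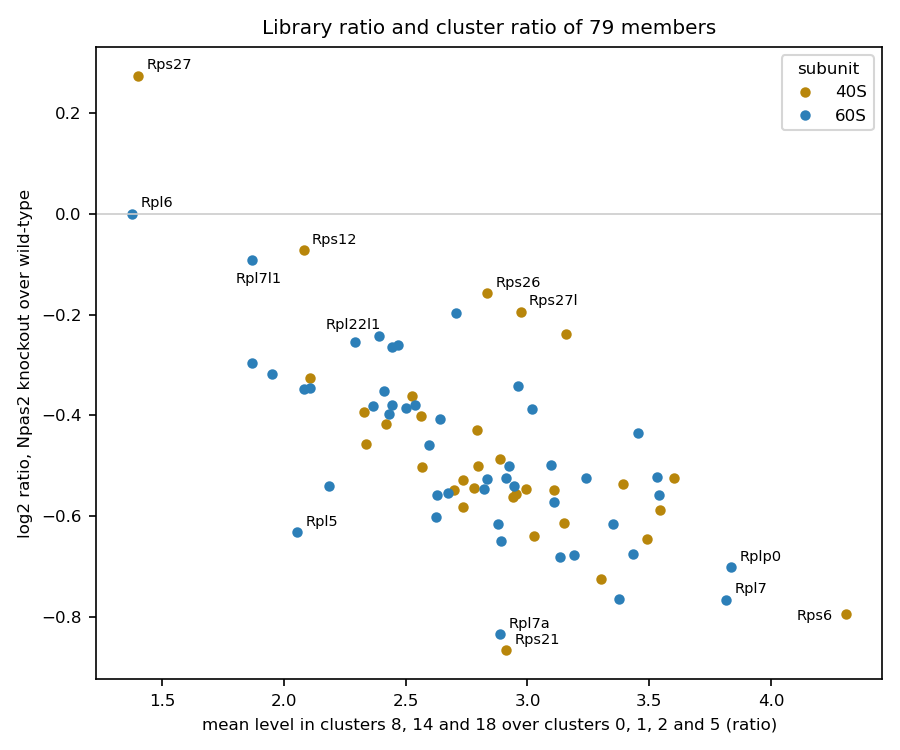
Log2 ratio of the Npas2 knockout library over the wild-type library against the ratio of mean levels in clusters 8, 14 and 18 over clusters 0, 1, 2 and 5, for the 79 members above the floor, coloured by subunit. Rps27 and Rpl6 lie at the upper left, Rps6 at the lower right with a cluster ratio of 4.31, and Rps21 and Rpl7a lie lowest at cluster ratios near 2.9.

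Per nucleus the libraries also differed. By harmonic mean depth the summed signal corresponded to 8.31 ribosomal protein UMIs per nucleus in the KO-labelled library. In the WT-labelled library it was 12.7, a ratio of 0.655. By arithmetic mean depth the values were 10.9 in the KO-labelled library and 18.6 in the WT-labelled library, a ratio of 0.585. Nuclei per cluster and the pooled clusters' UMIs per nucleus gave expected values by harmonic mean depth. These were 10.1 for the KO-labelled library and 10.4 for the WT-labelled library, a ratio of 0.975. Harmonic mean depths were 2506 in the KO-labelled library and 2760 in the WT-labelled library, a ratio of 0.908. Depth, mitochondrially encoded signal and the summed markers of oligodendrocytes, astrocytes, microglia and striatal spiny projection neurons were thus lower in the KO-labelled library together with the ribosomal protein genes. Their part in the difference was not tested, and with 1 library per genotype a difference of preparation and one of genotype cannot be told apart.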

How the data were processed

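The 10x Genomics 3′ v3.1 libraries were made from isolated nuclei, per the labels' protocols. The genome build was mm10, per the submitters' processing notes. The aligner, counting, clustering, filters on nuclei, doublet treatment and use of strand were not given in the labels. The authors deposited 1 table of average normalized signal per gene for each genotype and for 23 clusters. Each column summed to 10000, which makes a value an average over nuclei of counts scaled to 10000 per nucleus. Counts are not among its columns, and 0 columns of per-sample values were left without a listed sample.

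Nuclei per column (12739 in all) followed from the linear relation between genotype and cluster columns, to within 1.1e-07 of whole numbers. Depths and nuclei per cluster and library came from 9336 values equal to 1 UMI in 1 nucleus, within a tolerance of 0.0001, found in 7339 searched genes listed in at most 10 clusters, of which 4154 had only 1 way to be split between the libraries. Intervals are 95% Clopper-Pearson (ratios) or exact Poisson (levels and sums) on UMI numbers estimated from level, nuclei and harmonic mean depth. UMIs per nucleus use the harmonic mean depth. With it, the mean over all nuclei was 10.3 from the clusters and 10.2 from the libraries, and with the arithmetic mean 12.7 and 14.2. The steps were also run on simulated nuclei, drawn with the estimated depths and cluster shares. That run cannot check the assumptions behind these estimates.

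The log2 ratio used a pseudocount of 0.01, which understates changes of low genes. Ratios of levels and sums used none. Positions and overlaps came from GENCODE M21. Named genes were the 10 highest means, the 5 lowest and 5 highest log2 ratios above the floor, the paralogs named with l and their partners, Rpsa and the P stalk, the 5 members whose share varied most, the members next to the floor, and up to 4 genes of each other list by size of the log2 ratio. A few genes under this rule are not reported here. The members, lists and rules were chosen with earlier results of these data known. The rule for naming clusters was set after the data were seen. It needed 3 markers raised at least 2-fold with a level of at least 0.05, no contrary markers among the top 10 genes and at least 50 nuclei. Cluster 17, with odorant and vomeronasal receptor genes at its top, was left unnamed by an exception to this rule. Odorant receptor genes also led the excitatory neuron-like cluster 16, which kept its name. Clusters 0, 1, 2 and 5 were taken as large excitatory neuron-like clusters, and 8, 14 and 18 as the clusters with the highest ribosomal protein sums, which carry non-neuronal markers, also after the data were seen. Cluster 19, which carries such markers too, is not among them. Python 3.11.15, numpy 2.4.6, pandas 2.3.3, scipy 1.17.1 and matplotlib 3.10.9 were used. A protein sequence table was not used here.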

Additional observations from a re-analysis of the deposited data

How the results depend on the processing

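The direction of the ribosomal protein difference was kept under every alternative run, and its size moved. The median log2 ratio of -0.52 was -0.42 with a pseudocount of 0.1 and -0.15 with one of 1, where the pseudocount exceeds most levels. It was -0.50 without the floor, -0.46 with the libraries scaled to the median gene ratio (a shift of 0.06 on the log2 scale), -0.56 with mitochondrially encoded genes and Malat1 left out of the total, -0.50 with 3 genes outside the symbol rule added and -0.47 as a mean. With the value expected from nuclei per cluster subtracted it was -0.38, or -0.39 and -0.31 with 2 other estimators of those nuclei that were added after the data were seen. Members lower numbered 31 of 33 at a floor of 0.5, 29 of them at 80% or less of the WT-labelled level. The 65 members at 80% or less became 1 with a pseudocount of 1, 19 with a threshold of 1.5-fold lower and 0 with one of 2-fold lower. The ratio of sums, 0.721, was 0.752 after scaling, 0.699 without mitochondrially encoded genes and Malat1 in the total, 0.781, 0.778 and 0.820 over the expected ratio with the 3 estimators, and 0.711 without Rpl6. In 25 alternatives the value stayed within the counting interval or, for counts, within 1.5 times the reported one. Among these the 65 members at 80% or less were 56 after scaling, 53 with a pseudocount of 0.1 and 52 with the expected value subtracted, and the ratio of 3.04 between the highest and lowest named clusters was 2.96 to 3.28. Rpl6, with a ratio of 1.0, was lower in the KO-labelled library with mitochondrially encoded genes and Malat1 left out of the total, where 79 of 80 members were lower. Adding cluster 19 to clusters 8, 14 and 18, an alternative added after the data were seen, gave 1.03 per nucleus in place of 1.05. No paired analysis was possible because there was 1 library per genotype, so no library could be left out either. The depth limits single genes in small clusters, and a level of 0.00167 in the KO-labelled library or 0.00195 in the WT-labelled library corresponds to 3 UMIs.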
